A study of Mus musculus with 12 samples.

Results

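Livers in which the gene for ARNT had been deleted were compared with livers of the floxed control line for the same gene, over the whole transcriptome. The comparison uses 6 of the 12 libraries of the study: ARNT KO replicates 1 to 3 against ARNT Flox replicates 1 to 3, chosen by their genotype labels. AHR Flox replicates 1 to 3, the floxed control line of the aryl hydrocarbon receptor gene, are shown as a second reference level, and the 3 AHR KO libraries entered the shared fit. All mice were adult C57BL/6 females aged 6 months, and all had been fed a high-fat diet for 13 weeks, so neither sex nor diet differs between the groups. ARNT Flox mice carry recombination sites in Arnt, AHR Flox mice carry them in Ahr, and ARNT KO mice have lost Arnt in the liver. The sources used here do not name the recombinase line, the exons removed or the age at deletion. Each library is poly-A RNA from the liver of 1 mouse. In whole liver, fewer cells of a type and less RNA per cell cannot be told apart.

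ARNT (also called HIF1-beta) is a transcription factor of the bHLH-PAS family that binds DNA as the partner of other members of that family. With the ligand-activated receptor AHR it drives Cyp1a1, Cyp1a2 and other genes of foreign-compound metabolism. With HIF1A or EPAS1, which are stable when oxygen is low, it drives genes of glycolysis, angiogenesis and erythropoiesis.

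ARNT KO replicate 3 stood apart from its group, and the main results are therefore given with and without it. Total counts ran from 23585909 to 33255004 over the 12 libraries. On the first principal component of log2 CPM (CPM, counts scaled to the size of each library after TMM), which held 43.0% of the variance, that library lay at 65.3, while ARNT KO replicates 1 and 2 lay at −10.8 and 2.25. The ARNT Flox libraries lay between 22.2 and 30.3 and the AHR Flox libraries between −25.9 and −12.6, so the 2 control lines were apart as well. Defining hepatocyte genes (Alb, Apoa1, Ttr, Hnf4a) were read in every library, and the library's low Alb is described with its other values at the end.

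The largest named group of genes that separated ARNT KO replicates 1 and 2 from ARNT Flox belongs to the type I interferon response. Upstream stretches of several of them are printed below. Interferon-stimulated genes are read by the ISGF3 complex at the interferon-stimulated response element, searched here as GAAA, any 2 bases and GAAA again, on both strands. Of the 26 interferon genes that fell in those libraries, 19 had an entry in the RefSeq promoter table (GRCm38.p6, from 250 bases before to 50 after each start). The element was present in 12 of the 19 (63.2%), against 429 of 11142 tested genes with an entry (3.85%). The list was drawn up as interferon response genes, so a high share is expected from membership and does not bear on which genes fell. List members that were not called were not counted separately. Among genes called lower outside the list, the share was 8 of 88 (9.09%). The 8 include I830012O16Rik, whose matched stretches are the same as those of Ifit3. The list does not hold every interferon gene, so this share is not free of that limit either. The stretches below lie upstream of the start, read 5′ to 3′ on the strand of the gene, with the match in capitals; where it reads TTTC first, the element is on the opposite strand.
Ifit1 (chr19:34640792-34640825): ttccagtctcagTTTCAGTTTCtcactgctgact
Ifit3 (chr19:34583395-34583428): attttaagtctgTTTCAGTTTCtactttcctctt
Isg15 (chr4:156200863-156200896): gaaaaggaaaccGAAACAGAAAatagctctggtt
Oas1a (chr5:120907526-120907551): tctcgggaaatgGAAACTGAAAatct
Rsad2 (chr12:26456551-26456584): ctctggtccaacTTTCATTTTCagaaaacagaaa
A single match is shown per gene, Ifit1 and Ifit3 hold another apart from it, and in Isg15 and Oas1a other matches overlap the one shown. Oas1a is 1 of several near copies on chromosome 5, among which the assignment of reads is uncertain.

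A second group that fell in the same libraries holds targets of NRF2, the factor that responds to oxidative and electrophilic stress through the antioxidant response element. The element was searched as TGA, any 4 bases and GCA, on both strands. It was present in the promoter window of 5 of the 7 NRF2 list genes called lower (71.4%), against 13.1% of tested genes with an entry. These genes come from a list of NRF2 targets, so a high share is again expected from membership. Over all genes called lower the share was 15 of 107 (14.0%), close to that of tested genes. The 4 stretches below show the match in capitals, and a match that starts TGC is on the opposite strand.
Gstp1 (chr19:4037965-4037998): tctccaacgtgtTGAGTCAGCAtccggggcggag
Srxn1 (chr2:152105454-152105487): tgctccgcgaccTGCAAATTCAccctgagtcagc
Txnrd1 (chr10:82859101-82859134): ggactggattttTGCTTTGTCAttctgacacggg
Gstm3 (chr3:107969352-107969385): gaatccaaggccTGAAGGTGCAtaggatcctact
The cores read by ARNT itself were not more frequent among the genes called lower than among tested genes. GCGTG, the core bound by AHR with ARNT, was present in 45 of 107 (42.1%) of them against 53.3% of tested genes, and ACGTG, the core bound by the hypoxia factors with ARNT, in 19 of 107 (17.8%) against 28.2%. Outside the interferon list the shares among genes called lower were 41 of 88 (46.6%) and 18 of 88 (20.5%). Among genes called higher they were 22 of 43 (51.2%) and 12 of 43 (27.9%). These are counts of letters in windows of 300 bases and not of bound sites. Whether ARNT acts on any of these genes directly was not tested.

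The targeted gene was lower in each ARNT KO library. Arnt (chromosome 3, 95434367 to 95497240, mm10) was at 25.2, 23.9 and 18.95 CPM in replicates 1, 2 and 3 of ARNT KO (the order used throughout), at 47.8, 52.5 and 50.3 CPM in ARNT Flox, and at 51.3, 64.0 and 54.3 CPM in AHR Flox. The knockout libraries did not overlap either control line, and replicate 3 had the least Arnt, so on this gene it carried its label. The log2 change against ARNT Flox was −1.15 ± 0.12 SE (adjusted p = 0.00601), and −1.03 ± 0.12 without replicate 3 (adjusted p = 0.00193). Against AHR Flox it was −1.32 (adjusted p = 0.000491), and −1.20 without replicate 3 (adjusted p = 0.00106). Gene-level counts do not show from which cells or exons the remaining Arnt reads came.

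Among the partners of ARNT, Epas1 (HIF2-alpha, chromosome 17, 86753864 to 86833410) was lower than in ARNT Flox and level with AHR Flox. It was at 287, 276 and 243 CPM in ARNT KO, 362, 382 and 382 CPM in ARNT Flox, and 255, 267 and 270 CPM in AHR Flox. ARNT KO and ARNT Flox did not overlap, while ARNT KO and AHR Flox did. Epas1 fell without replicate 3 (log2 change −0.41 ± 0.08 SE, adjusted p = 0.0422) and missed the threshold with it (−0.48 ± 0.09, adjusted p = 0.217). Ahr (chromosome 12), the other main partner, was at 62.1, 78.4 and 92.4 CPM in ARNT KO against 71.6, 80.1 and 96.4 CPM in ARNT Flox, and the groups overlapped (log2 change −0.23 without replicate 3, adjusted p = 0.537; −0.09 with it, adjusted p = 1.00). Hif1a was at 67.4, 63.1 and 64.0 CPM against 72.7, 73.6 and 63.4 CPM, overlapping too (log2 change −0.10 without replicate 3, adjusted p = 0.643; −0.11 with it, adjusted p = 0.948). Of the 9 tested members of the bHLH-PAS family, Arnt, the deleted gene, and Epas1 were called lower without replicate 3. Over all tested genes 1.00% were called lower. In the family 0 were called higher. With replicate 3, 8 were tested and Arnt alone was called.

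With all 3 ARNT KO libraries, 8 of 13968 genes (0.0573%) passed an adjusted p of 0.05, of which 3 were higher (0.0215%) and 5 lower (0.0358%). An unadjusted p under 0.05 was reached by 822 genes. Apart from Arnt, the calls that also stood apart from AHR Flox were Esr1, Pebp1 and Akap6. Esr1, the gene of estrogen receptor alpha (chromosome 10, 4611989 to 5005633), was at 216, 199 and 307 CPM in ARNT KO, 42.4, 36.0 and 38.6 CPM in ARNT Flox, and 34.9, 37.0 and 30.9 CPM in AHR Flox. No ARNT KO library came near either control line, and replicate 3 was the highest of them. The AHR KO libraries held 468 to 473 CPM, so Esr1 was above both floxed lines in both knockouts. Esr1 rose 6.17-fold (log2 change 2.63 ± 0.15 SE, adjusted p = 2.67e-05), and 5.34-fold without replicate 3 (2.42 ± 0.09, adjusted p = 4.09e-07). Counts were deposited per gene, and they do not show which exons of Esr1 were read. Some inducible recombinases contain the ligand-binding part of an estrogen receptor; whether the one used here does was not tested, and the sources used here do not give it.

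Pebp1 (chromosome 5, 117282651 to 117287564), which encodes a Raf kinase inhibitor protein, was at 208, 208 and 252 CPM in ARNT KO, 89.6, 93.8 and 95.8 CPM in ARNT Flox, and 112, 116 and 127 CPM in AHR Flox. All 3 ARNT KO libraries were above all 6 floxed libraries. The AHR KO libraries held 239 to 339 CPM, so Pebp1 too was high in both knockouts. Pebp1 rose against ARNT Flox (log2 change 1.26 ± 0.13 SE, adjusted p = 0.0046; 1.16 ± 0.12 without replicate 3, adjusted p = 0.00125). Against AHR Flox the change was 0.91 (adjusted p = 0.0126), and 0.82 without replicate 3 (adjusted p = 0.0266). Akap6, which encodes an anchoring protein for protein kinase A (chromosome 12, 52698588 to 53155568), had 5 counts in each ARNT KO library, 51, 27 and 17 in ARNT Flox, and 33, 30 and 34 in AHR Flox. Its log2 change was −2.73 ± 0.38 SE (adjusted p = 0.0382), and −2.69 ± 0.47 without replicate 3 (adjusted p = 0.0196). Akap6 was below the abundance set for named genes and was chosen after its values were seen.

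The remaining 4 calls differed from ARNT Flox but lay at the level of AHR Flox. Gpr64 (now Adgrg2, an adhesion receptor gene) stood at 5.80, 4.92 and 6.55 CPM in ARNT KO, 15.3, 13.1 and 11.6 CPM in ARNT Flox, and 4.22, 5.88 and 4.76 CPM in AHR Flox. Rad51l1 (now Rad51b, of recombination repair) was at 16.4, 16.3 and 11.3 CPM in ARNT KO, 36.2, 29.4 and 31.6 CPM in ARNT Flox, and 14.95, 15.7 and 14.5 CPM in AHR Flox. Cyp2g1, a cytochrome P450 gene, stood at 4.97, 4.04 and 3.42 CPM in ARNT KO, 18.0, 11.6 and 13.5 CPM in ARNT Flox, and 3.92, 4.68 and 2.57 CPM in AHR Flox. In these 3 genes ARNT Flox was high alone, and ARNT KO overlapped AHR Flox. Atp2b2, a plasma membrane calcium pump gene, was the reverse: 6.95, 6.70 and 8.16 CPM in ARNT KO and 7.29, 8.17 and 4.39 CPM in AHR Flox, against 2.83, 2.41 and 2.56 CPM in ARNT Flox. Without replicate 3 the log2 changes against ARNT Flox were −1.31, −0.98, −1.67 and 1.39 (adjusted p from 0.00482 to 0.0188), and with it −1.21, −1.15, −1.80 and 1.48 (adjusted p from 0.0354 to 0.0485). Against AHR Flox without replicate 3 they were 0.12, 0.12, 0.27 and 0.04 (adjusted p from 0.971 to 0.993). The plot of the 8 called genes shows both kinds.

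**Figure D1:**
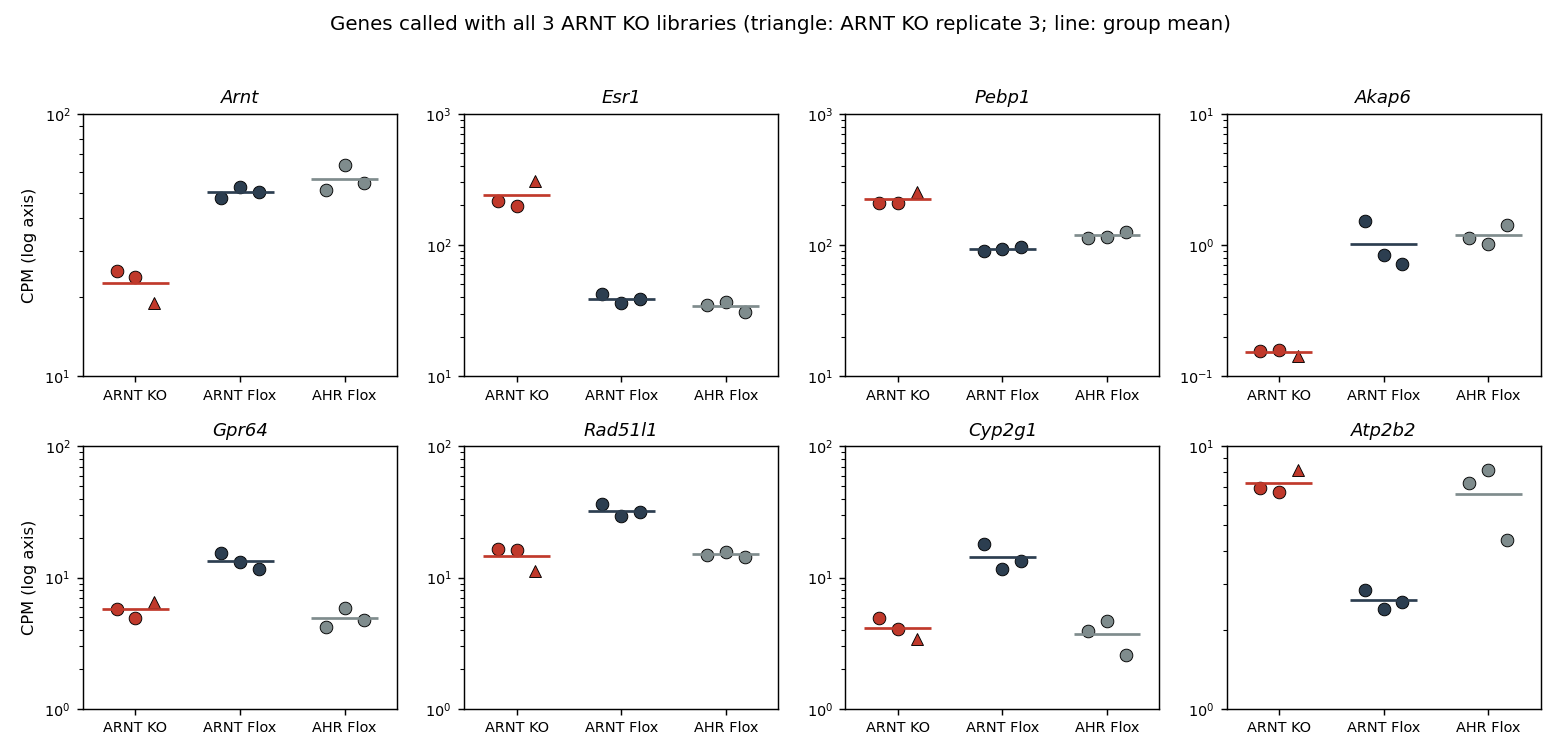
CPM on log axes for the 8 genes called with all 3 ARNT KO libraries, 1 point per library and a line at each group mean, with ARNT KO replicate 3 as a triangle. In the upper row ARNT KO lies apart from both control lines, with Esr1 at 199 to 307 CPM against 30.9 to 42.4 CPM. In the lower row ARNT KO lies at the level of AHR Flox and ARNT Flox lies apart.

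Without ARNT KO replicate 3, 193 of 14073 genes (1.37%) were called, of which 52 were higher (0.370%) and 141 lower (1.00%), and 2311 reached an unadjusted p under 0.05. All 8 genes above were among the 193. A limma-voom fit that keeps all 12 libraries and weights each by its quality called 422. In that fit Cbr3 changed by −3.01, near its −3.33 in edgeR without replicate 3 and unlike its 2.59 with it. Calls of the weighted fit therefore do not show that a result holds with replicate 3 at full weight. DESeq2 and weighted limma-voom called more genes in all than edgeR, with and without replicate 3. Their counts of list members below belong beside those totals, which the closing section gives. The median log2 change over all tested genes was 0.0015. Of the 193 genes, 59 belong to a gene list and 134 to none. With replicate 3 included, 29 of the 141 genes called lower had a log2 change above 0, and 0 of the 52 called higher changed sign.

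Interferon response genes made up the largest group of calls. Without replicate 3, all 42 tested members had a log2 change below 0, at a median of −0.84. Of these, 26 were called lower (background, over all tested genes, 1.00%) and 0 higher. With replicate 3 the median was −0.19, 32 of 42 were below 0, and 0 were called in either direction by edgeR (2 at an unadjusted p under 0.05) or by DESeq2. The weighted limma-voom fit, in which replicate 3 need not count in full, called 26 with all 12 libraries. Irf7, the regulator that amplifies the type I interferon response, was at 45.6, 45.1 and 200 CPM in ARNT KO, 108, 114 and 106 CPM in ARNT Flox, and 41.1, 41.7 and 34.0 CPM in AHR Flox. Replicates 1 and 2 were below each ARNT Flox library and replicate 3 was above each. Irf7 fell without replicate 3 (log2 change −1.26 ± 0.12 SE, adjusted p = 0.000624), and its change was −0.17 ± 0.45 with it (adjusted p = 1.00).

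The antiviral effectors had the same layout. Ifit2, which binds viral RNA, was at 8.41, 8.39 and 40.8 CPM in ARNT KO, 21.9, 19.7 and 18.9 CPM in ARNT Flox, and 6.20, 7.07 and 6.42 CPM in AHR Flox (log2 change −1.26 without replicate 3, adjusted p = 0.000864; −0.07 with it, adjusted p = 1.00). Oas1g, of the 2-5A synthetase family that activates RNase L, was at 2.08, 1.81 and 14.9 CPM in ARNT KO, 6.19, 5.79 and 5.45 CPM in ARNT Flox, and 1.63, 1.74 and 2.15 CPM in AHR Flox (−1.57, adjusted p = 0.00116; 0.11 with it, adjusted p = 1.00). Ifi44 changed most among the called members, at 11.8, 7.69 and 60.5 CPM in ARNT KO against 33.1, 27.4 and 28.5 CPM in ARNT Flox and 5.82, 9.30 and 6.87 CPM in AHR Flox (−1.60, adjusted p = 0.00482; −0.15 with it, adjusted p = 1.00). In all 3 genes ARNT KO replicates 1 and 2 were near AHR Flox, and replicate 3 was the highest of the 9 libraries.

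Over the 26 called members the log2 changes ran from −1.60 to −0.49 (adjusted p from 0.000624 to 0.0464) without replicate 3, and from −0.61 to 0.34 (adjusted p from 0.452 to 1.00) with it. In 24 of the 26, replicate 3 was above all 3 ARNT Flox libraries. Against AHR Flox, 0 of the 26 were called without replicate 3 (background 0.156%), at a median log2 change of 0.20, and 0 of 26 with it, at a median of 1.15. ARNT Flox against AHR Flox called 26 of 26 higher (background 6.38%) at a median of 1.19 in the fit without that library, and 2 of 26 (background 0.136%) at the same median in the fit with it. These comparisons share libraries, and the values are given side by side only. The list count depended on single libraries: it fell to 6 when ARNT KO replicate 1 was left out and to 9 when ARNT KO replicate 2 was, and to 13, 14 and 20 when ARNT Flox replicate 1, 2 or 3 was. Leaving out 1 of the 2 knockout libraries leaves a lone library, which the fit assumes to vary like the other groups.

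**Figure D2:**
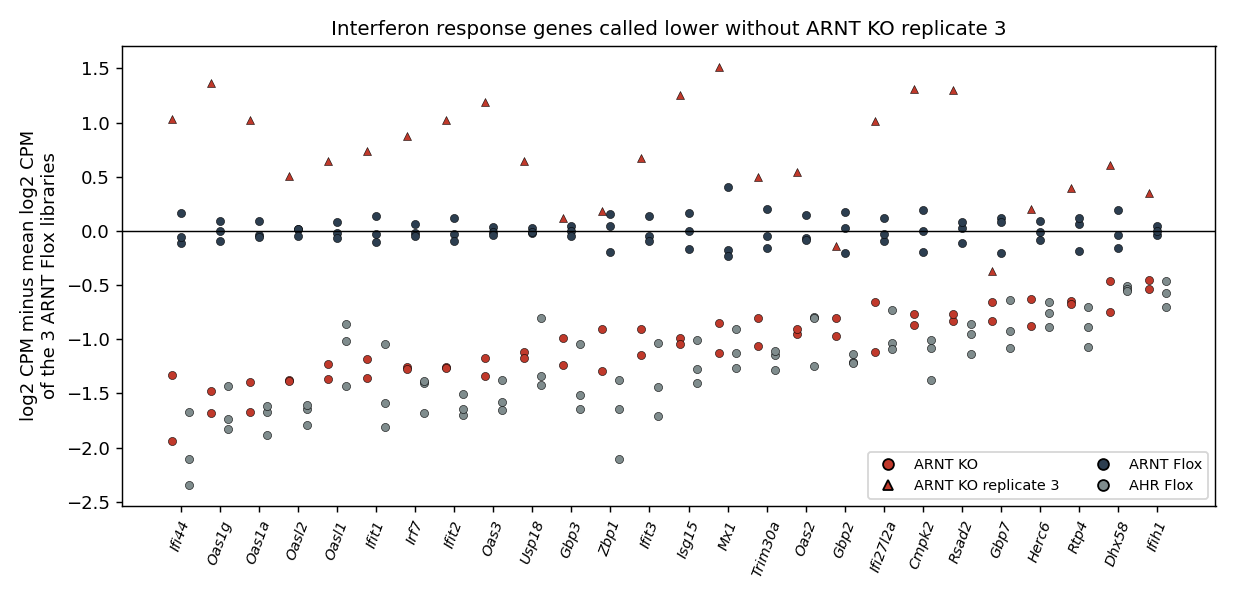
The 26 interferon response genes called lower without ARNT KO replicate 3, as log2 CPM minus the mean of the 3 ARNT Flox libraries, 1 point per library (triangle: ARNT KO replicate 3). ARNT KO replicates 1 and 2 and the AHR Flox libraries lie below the line for each gene, and in 24 of 26 genes replicate 3 lies above all ARNT Flox libraries.

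Marker lists of several other liver cells had log2 changes mostly below 0 beside the interferon genes. Without replicate 3 all 20 tested Kupffer cell and macrophage markers had a log2 change below 0 (median −0.32). Of these, Mpeg1 and Gpnmb were called lower (background 1.00%). Summed over the list, the level was 819, 896 and 1554 CPM in ARNT KO, 1091 to 1123 CPM in ARNT Flox and 655 to 963 CPM in AHR Flox. Mpeg1, a pore-forming protein gene of macrophages, was at 99.9, 114 and 322 CPM in ARNT KO against 189, 185 and 187 CPM in ARNT Flox and 79.1, 83.1 and 102 CPM in AHR Flox (log2 change −0.81 without replicate 3, adjusted p = 0.00574; −0.07 with it, adjusted p = 1.00). Clec4f, a defining Kupffer cell gene, stood at 151, 152 and 227 CPM in ARNT KO, 167, 178 and 181 CPM in ARNT Flox, and 122, 132 and 149 CPM in AHR Flox. Of 20 lymphocyte markers 17 were below 0 (median −0.36), at a summed level of 19.6 to 29.6 CPM in ARNT KO, 24.7 to 35.4 CPM in ARNT Flox and 14.2 to 21.3 CPM in AHR Flox. Of 29 extracellular matrix and stellate cell markers 26 were below 0 (median −0.34), and of 17 endothelial markers all 17 (median −0.08). In these 3 lists edgeR called 0 genes in either fit (without replicate 3, 4, 7 and 1 reached an unadjusted p under 0.05, and with it 2, 0 and 0). DESeq2 called 0 there too, and weighted limma-voom called 1 lymphocyte marker with all 12 libraries. The part of these cells in the interferon result was not tested. With replicate 3 the macrophage list had a median of −0.07 and 0 calls by edgeR (0 at an unadjusted p under 0.05), 0 by DESeq2 and 2 by weighted limma-voom. The medians of the lymphocyte, matrix and endothelial lists were then −0.20, 0.11 and −0.05. Against AHR Flox the medians of the macrophage, lymphocyte, matrix and endothelial lists were above 0. They were 0.21, 0.44, 0.08 and 0.20 without replicate 3, and 0.53, 0.62, 0.49 and 0.24 with it.

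Antigen presentation genes, which interferon also raises, were mostly lower without replicate 3 (19 of 20 below 0, median −0.34). Of the 20, Psmb8, an immunoproteasome subunit gene, was the single call (background 1.00% called lower). Its log2 change was −0.48 (adjusted p = 0.0454), and −0.19 with replicate 3 (adjusted p = 0.980). With replicate 3 the median was −0.14 with 0 calls by edgeR (0 at an unadjusted p under 0.05), 0 by DESeq2 and 1 by weighted limma-voom. Against AHR Flox the list median was 0.42 without replicate 3 and 0.52 with it.

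Of 34 tested NRF2 targets and glutathione enzymes, 7 were called lower (background 1.00%) and 0 higher without replicate 3 (median log2 change −0.30, 27 below 0). With it the median was 0.25, 4 were below 0 and 0 were called by edgeR (3 at an unadjusted p under 0.05), 1 by DESeq2 and 5 by weighted limma-voom. Cbr3, a carbonyl reductase gene (chromosome 16), was at 0.900, 0.890 and 162 CPM in ARNT KO, 8.45, 10.5 and 8.25 CPM in ARNT Flox, and 0.988, 0.444 and 0.952 CPM in AHR Flox. The value in replicate 3 was above all other libraries and those in replicates 1 and 2 were below all of ARNT Flox, so the direction of Cbr3 turned with 1 library: the log2 change was −3.33 ± 0.27 SE without replicate 3 (adjusted p = 0.000302) and 2.59 ± 1.35 with it (adjusted p = 0.862). Srxn1, which reduces overoxidised peroxiredoxins, was at 41.0, 52.8 and 447 CPM in ARNT KO, 104, 103 and 104 CPM in ARNT Flox, and 44.6, 50.04 and 57.8 CPM in AHR Flox (−1.14, adjusted p = 0.00156; 0.80 with it, adjusted p = 0.980). Gstp1, a glutathione transferase gene, stood at 128, 167 and 933 CPM in ARNT KO, 317, 343 and 295 CPM in ARNT Flox, and 138, 116 and 157 CPM in AHR Flox (−1.11, adjusted p = 0.00466; 0.36 with it, adjusted p = 0.998). In these 3 genes replicates 1 and 2 overlapped AHR Flox. The other calls were Nqo1, Txnrd1, Gstm3 and Abcc4. Reads of the glutathione transferases can be shared between near copies, so Gstm3 is uncertain. In all 7, replicate 3 was above every ARNT Flox library, and 0 of 7 were called against AHR Flox with or without it (medians of 1.83 and 0.09). The count of 7 fell to 2 when ARNT KO replicate 1 was left out, to 3 when ARNT KO replicate 2 was, and to 3 or 4 when an ARNT Flox library was.

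Among the AHR targets, which need ARNT as the partner of AHR, Cyp1a2, the main Cyp1 enzyme of liver, had the smallest p, and Ugt1a9 fell further. Cyp1a2 (chromosome 9) was at 291, 265 and 780 CPM in ARNT KO, 780, 836 and 743 CPM in ARNT Flox, and 431, 530 and 424 CPM in AHR Flox. Replicates 1 and 2 were below all 6 floxed libraries, and replicate 3 lay within ARNT Flox. Cyp1a2 fell without replicate 3 (log2 change −1.50 ± 0.13 SE, adjusted p = 0.000495) and missed the threshold with it (−0.82 ± 0.33, adjusted p = 0.769). Against AHR Flox the change without replicate 3 was −0.73 (adjusted p = 0.0614), and −0.05 with it (adjusted p = 0.956). Ugt1a9, which glucuronidates phenols and shares exons with other Ugt1a genes so that its counts are uncertain, was at 21.0, 17.0 and 119 CPM in ARNT KO, 98.5, 119 and 109 CPM in ARNT Flox, and 24.0, 17.0 and 25.4 CPM in AHR Flox (−2.51, adjusted p = 0.00862; −1.05 with it, adjusted p = 0.910). Nqo1, a quinone reductase gene that NRF2 also drives, was at 14.9, 13.2 and 94.8 CPM in ARNT KO, 31.5, 31.2 and 27.1 CPM in ARNT Flox, and 13.6, 18.0 and 17.4 CPM in AHR Flox (−1.09, adjusted p = 0.0245; 0.45 with it, adjusted p = 0.995). Of these genes, Cyp1a2 alone was below both control lines in replicates 1 and 2. Of 15 tested AHR targets, those 3 were called lower (background 1.00%) and 0 higher without replicate 3 (median −0.59). With it, 0 of 14 were called by edgeR (median 0.05, 4 at an unadjusted p under 0.05) and by DESeq2, and 3 by weighted limma-voom. Against AHR Flox the list median was 0.05 without replicate 3 and 0.43 with it, so as a list these genes were not lower than in that line. Tiparp, the ADP-ribosyltransferase that limits AHR activity, was at 11.6, 11.4 and 9.42 CPM in ARNT KO against 9.56, 7.86 and 7.58 CPM in ARNT Flox (0.47 without replicate 3, adjusted p = 0.0764; 0.37 with it, adjusted p = 0.637), and is named after its values were seen.

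Of 35 tested targets of the hypoxia-inducible factors, 2 were called lower and 0 higher without replicate 3 (median log2 change −0.15), and 9 reached an unadjusted p under 0.05. Over all 14073 tested genes 1.00% were called lower and 2311 reached that p. With replicate 3, edgeR called 0 of the 35 (median −0.02, 5 at an unadjusted p under 0.05; 1 by DESeq2 and 3 by weighted limma-voom). Ndrg1, a hypoxia-induced differentiation gene, stood at 10.3, 12.6 and 22.4 CPM in ARNT KO, 21.1, 16.5 and 18.8 CPM in ARNT Flox, and 10.3, 9.91 and 9.69 CPM in AHR Flox (−0.71, adjusted p = 0.0178; −0.32 with it, adjusted p = 0.947). Hk2, the hexokinase of low-oxygen glycolysis, was at 3.04, 3.24 and 7.15 CPM in ARNT KO, 6.31, 4.76 and 6.87 CPM in ARNT Flox, and 2.28, 1.64 and 1.90 CPM in AHR Flox (−0.92, adjusted p = 0.0422; −0.41 with it, adjusted p = 0.947). In both genes replicates 1 and 2 were below ARNT Flox and at or above AHR Flox, and replicate 3 was above both reference means. Ankrd37, a HIF1 target gene, was low in all 3 knockout libraries, at 0.403, 0.635 and 0.574 CPM against 2.32, 2.88 and 1.21 CPM in ARNT Flox and 1.498, 3.42 and 1.82 CPM in AHR Flox. The knockout libraries did not overlap either control line, but Ankrd37 missed the threshold (adjusted p = 0.0694 without replicate 3, and 0.257 with it). Core circadian clock genes, whose ARNT-like protein is ARNTL, had 0 edgeR calls among 19 in both fits (median 0.19 without replicate 3, with 4 at an unadjusted p under 0.05, and 0.06 with it, with 1). DESeq2 called 1 without replicate 3 and 0 with it, and weighted limma-voom 0 in both.

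Drug-metabolizing cytochromes P450 were the main named group among the genes called higher. Of 38 tested, 5 were called higher (background 0.370%) and Cyp2g1 lower (1.00%) without replicate 3, at a median log2 change of 0.29. With replicate 3 the median was 0.06 and edgeR called Cyp2g1 alone, with 9 at an unadjusted p under 0.05. DESeq2 then called 4 and weighted limma-voom 9. Against AHR Flox the list median was −0.01 without replicate 3 and −0.21 with it. Cyp2c50 (chromosome 19), of the Cyp2c subfamily, was at 449, 398 and 80.3 CPM in ARNT KO, 99.2, 96.3 and 111 CPM in ARNT Flox, and 415, 534 and 532 CPM in AHR Flox (2.06 ± 0.21 SE, adjusted p = 0.00112; 1.60 ± 0.47 with replicate 3, adjusted p = 0.569). Cyp2b13, a female-biased P450 gene, stood at 707, 711 and 172 CPM in ARNT KO, 152, 242 and 173 CPM in ARNT Flox, and 572, 724 and 649 CPM in AHR Flox (1.91, adjusted p = 0.00452; 1.49 with it, adjusted p = 0.569). In both, replicates 1 and 2 were far above ARNT Flox, and replicate 3 lay within its range or below it. Cyp2d9, a male-biased steroid hydroxylase gene, stood at 46.9, 63.1 and 16.2 CPM in ARNT KO, 3.72, 5.35 and 5.03 CPM in ARNT Flox, and 17.3, 17.6 and 33.3 CPM in AHR Flox (3.56 ± 0.41, adjusted p = 0.00224; 3.16 ± 0.52 with it, adjusted p = 0.115). Replicates 1 and 2 were above all floxed libraries for Cyp2d9, which was not the case for the other 4. Cyp2c38 and Cyp2j5 rose less (0.85 and 0.51, adjusted p = 0.0241 and 0.0437; 0.43 and 0.24 with replicate 3, each at adjusted p = 0.980). Cyp2c and Cyp2d genes form clusters of near copies, so the split of reads among them is uncertain.

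Genes with a sex difference in liver showed no common direction. Of 23 tested female-biased genes, 2 were called higher without replicate 3 (Cyp2b13 and Sult3a1, background 0.370%) at a median of 0.32. Of 17 male-biased genes 1 was called higher (Cyp2d9) and 1 lower (Gstp1, background 1.00%) in that fit, at a median of 0.05. With replicate 3, edgeR called 0 in either list (5 at an unadjusted p under 0.05 in each), DESeq2 called 0 female-biased and 1 male-biased gene, and weighted limma-voom 2 and 3. Sult3a1, a female-biased sulfotransferase gene, stood at 19.9, 9.91 and 0.861 CPM in ARNT KO, 1.46, 0.250 and 1.13 CPM in ARNT Flox, and 28.7, 21.5 and 45.5 CPM in AHR Flox (3.98 without replicate 3, adjusted p = 0.0365; 3.43 with it, adjusted p = 0.588). Its replicates 1 and 2 were above ARNT Flox and below AHR Flox, and replicate 3 lay within ARNT Flox.

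Chaperone and stress genes of the endoplasmic reticulum had about the same median change with and without replicate 3. Of 29 tested, 3 were called higher (background 0.370%) and 0 lower without replicate 3, at a median of 0.37. With replicate 3 the median was 0.33 and edgeR called 0, with 7 at an unadjusted p under 0.05. DESeq2 then called 4 and weighted limma-voom 5. Calr, the calcium-binding chaperone calreticulin, was at 612, 433 and 355 CPM in ARNT KO, 268, 258 and 247 CPM in ARNT Flox, and 664, 512 and 659 CPM in AHR Flox (1.02, adjusted p = 0.0137; 0.85 with it, adjusted p = 0.350). Sdf2l1, a cofactor of the chaperone BiP, was at 13.7, 9.66 and 10.9 CPM in ARNT KO, 3.75, 3.73 and 3.69 CPM in ARNT Flox, and 14.4, 11.04 and 17.6 CPM in AHR Flox (1.65, adjusted p = 0.0462; 1.62 with it, adjusted p = 0.228). Pdia6, a disulfide isomerase gene, was the other call (0.68, adjusted p = 0.0422; 0.67 with it, adjusted p = 0.228). In Calr and Sdf2l1 ARNT Flox was below each ARNT KO and each AHR Flox library, and replicate 3 was on the side of its group. Against AHR Flox the list median was −0.03 without replicate 3 and −0.08 with it.

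Single calls came from other parts of liver metabolism. Nr1h4, the bile acid receptor FXR, was at 174, 191 and 103 CPM in ARNT KO, 128, 131 and 123 CPM in ARNT Flox, and 183, 212 and 177 CPM in AHR Flox (0.52, adjusted p = 0.0225; 0.29 with replicate 3, adjusted p = 0.911). Pygl, liver glycogen phosphorylase, rose by a log2 change of 0.43 (adjusted p = 0.0464; 0.26 with it, adjusted p = 0.884). Scd2, a fatty acid desaturase gene that adult liver expresses weakly, was at 7.63, 10.5 and 116 CPM in ARNT KO, 27.6, 38.7 and 19.7 CPM in ARNT Flox, and 7.39, 7.72 and 7.37 CPM in AHR Flox (−1.66, adjusted p = 0.0241; 0.64 with it, adjusted p = 0.995). Car3, the muscle and liver carbonic anhydrase gene, stood at 2698, 2133 and 582 CPM in ARNT KO against 987, 1076 and 1002 CPM in ARNT Flox and 1737, 2367 and 2618 CPM in AHR Flox (1.24, adjusted p = 0.0196; 0.82 with it, adjusted p = 0.861). Replicate 3 was on the far side of ARNT Flox from replicates 1 and 2 in Nr1h4, Scd2 and Car3. The lists of cholesterol synthesis, fatty acid oxidation, lipid droplets, retinoid metabolism, acute phase and periportal genes had 0 calls by edgeR in both fits. With replicate 3 each held 1 to 3 members at an unadjusted p under 0.05 and 0 DESeq2 calls, and weighted limma-voom called 0 to 2. Oxidative phosphorylation genes had 35 of 35 log2 changes above 0 without replicate 3 at a median of 0.20, and cytosolic ribosomal protein genes 33 of 35 below 0 at −0.17. Neither list had an edgeR call in either fit (20 and 10 at an unadjusted p under 0.05 without replicate 3), and with replicate 3 their medians were 0.11 (1 at an unadjusted p under 0.05) and −0.11 (3). For the 2 lists in that order, DESeq2 called 2 and 1 without replicate 3 and 0 and 1 with it, and weighted limma-voom 0 and 1, then 0 and 2. Against AHR Flox their medians were −0.04 and 0.03 without replicate 3, and −0.14 and 0.08 with it. Of 25 genes of pericentral hepatocytes, which surround the central vein, 3 were called lower without replicate 3 (background 1.00%) at a list median of 0.0011. They were Cyp1a2, Gstm3 and the ammonium transporter gene Rhbg (Rhbg at −0.95, adjusted p = 0.0422). With replicate 3 the list median was −0.10 and edgeR called 0 (5 at an unadjusted p under 0.05), DESeq2 1 and weighted limma-voom 5.

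Other large falls were in single genes. Lrtm2 fell furthest and Abcc12, a gene of the ABC transporter family, by nearly as much (−4.04 and −3.61 without replicate 3, adjusted p = 0.00754 and 0.0422), but with replicate 3 the changes were 0.48 and −0.04 (adjusted p = 1.00 for each). Lrtm2 was at 0.124, 0.127 and 8.61 CPM in ARNT KO, 1.88, 2.57 and 1.97 CPM in ARNT Flox, and at most 0.102 CPM in AHR Flox. Replicate 3 was above all of ARNT Flox for this gene and replicates 1 and 2 were below. Tuba8, a tubulin gene (chromosome 6), was at 0.745, 0.794 and 9.96 CPM in ARNT KO, 7.62, 7.86 and 7.75 CPM in ARNT Flox, and 1.06, 1.13 and 1.45 CPM in AHR Flox (−3.32 ± 0.25 SE, adjusted p = 0.00021; −1.004 with replicate 3, adjusted p = 0.948). H19, an imprinted noncoding RNA of fetal liver (chromosome 7), was at 5.71, 8.83 and 120 CPM in ARNT KO, 90.1, 120 and 65.7 CPM in ARNT Flox, and 0.613, 0.513 and 0.704 CPM in AHR Flox. The levels of H19 thus formed 3 separate steps: AHR Flox lowest, ARNT KO replicates 1 and 2 between, and ARNT Flox with replicate 3 highest. H19 fell against ARNT Flox without replicate 3 (−3.66 ± 0.33, adjusted p = 0.000624; −1.04 ± 0.84 with it, adjusted p = 0.967), and it was the 1 gene called lower against ARNT Flox and higher against AHR Flox in that fit (3.58, adjusted p = 0.00317; 6.20 against AHR Flox with replicate 3, adjusted p = 0.113). Whether reads of H19 include those of other transcripts on either strand is unknown, since the sources used here give no strand setting for the counting. Ubd, an interferon-inducible ubiquitin-like gene, and Gpnmb, the glycoprotein gene of the macrophage list, fell by 2.42 and 2.66 on the log2 scale without replicate 3 (adjusted p = 0.00754 and 0.00768; changes of 0.35 and −0.63 with it, adjusted p = 1.00 and 0.995).

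The 193 genes were placed between both control lines. The mean of replicates 1 and 2 lay within the AHR Flox range in 23 of the 52 genes called higher (44.2%, against 58.0% of all tested genes with a change above 0) and in 68 of the 141 called lower (48.2%, against 57.8%), so lying within that range was not more frequent among the called genes. On a log2 scale with the mean of ARNT KO replicates 1 and 2 at 0 and the mean of ARNT Flox at 1, AHR Flox lay at a median of −0.04 (quartiles −0.19 and 0.13), and 184 of the 193 genes had it under 0.5. ARNT KO replicate 3 lay at a median of 1.37 (quartiles 0.89 and 1.76), with 170 genes at 0.5 or more and 133 past 1. Over all tested genes the same medians were 0.03 (quartiles −0.65 and 0.78; 68.0% under 0.5) and 1.35 (quartiles −0.09 and 2.73; 66.8% at 0.5 or more), so the medians of the called genes were close to those of all genes and their quartiles narrower. Replicates 1 and 2 chose these genes, so their own separation from ARNT Flox is a description, whereas AHR Flox and replicate 3 did not enter that contrast. For the 141 genes called lower, replicate 3 was in the ARNT Flox range or above it in 116 (82.3%, against 72.5% of all tested genes with a change below 0), and at or below replicate 1 or 2 in 6 (4.26% against 35.2%). For the 52 called higher it was in or below the ARNT Flox range in 33 (63.5% against 71.2%), and at or above replicate 1 or 2 in 6 (11.5% against 36.0%). Against AHR Flox directly, 24 genes (0.172%) were called with all 3 ARNT KO libraries, of which 7 were higher (0.0501%) and 17 lower (0.122%). Without replicate 3 the count was 22 (0.156%), with 7 higher (0.0497%) and 15 lower (0.107%). Of the 193, 2 of the 52 higher and 2 of the 141 lower genes were called in the same direction against AHR Flox: Esr1, Pebp1, Arnt and Akap6.

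**Figure D3:**
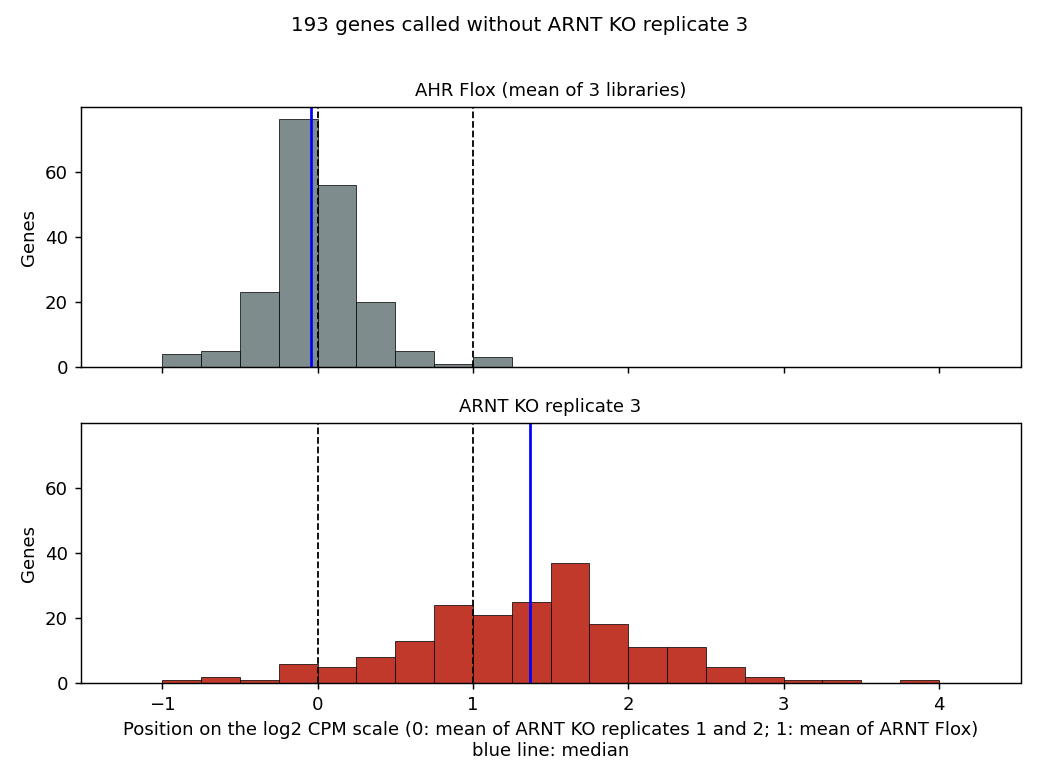
Position of AHR Flox (upper) and of ARNT KO replicate 3 (lower) for the 193 genes called without replicate 3, on a log2 CPM scale where 0 is the mean of ARNT KO replicates 1 and 2 and 1 is the mean of ARNT Flox. The vertical axis counts genes, and blue lines mark the medians of −0.04 and 1.37.

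ARNT KO replicates 1 and 2 lay outside all 6 floxed libraries in 26 of the 193 genes, 10 above (background 2.78% of tested genes) and 16 below (2.39%). In 7 of the 26, replicate 3 was outside on the same side, 3 of 10 above (30%) and 4 of 16 below (25%). Among all tested genes with replicates 1 and 2 outside, it followed in 173 of 391 above (44.2%) and 104 of 337 below (30.9%), so the called genes did not follow more often. The 7 were Arnt, Akap6, Cldn2 and Csrp3 below, and Esr1, Pebp1 and Cox18 above. Cldn2, a pore-forming tight junction gene, stood at 80.4, 79.9 and 86.7 CPM in ARNT KO, 130, 119 and 118 CPM in ARNT Flox, and 94.5, 86.9 and 113 CPM in AHR Flox. Csrp3, a muscle LIM protein gene, stood at 27.3, 28.6 and 25.8 CPM against 50.2, 45.5 and 48.7 CPM in ARNT Flox and 31.3, 34.2 and 35.4 CPM in AHR Flox. For both, ARNT KO lay just under AHR Flox and well under ARNT Flox. Among those in which replicate 3 did not follow, Hspb1, a small heat shock protein gene, stood at 5.74, 5.27 and 19.4 CPM in ARNT KO, 15.7, 15.3 and 19.1 CPM in ARNT Flox, and 14.6, 11.6 and 15.6 CPM in AHR Flox (log2 change −1.59 without replicate 3, adjusted p = 0.0102; −0.71 with it, adjusted p = 0.908). Here the control lines were level with each other and replicate 3 was with them. Cldn2, Csrp3, Cox18 and Hspb1 are named after their values were seen.

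ARNT KO replicate 3 was the most extreme of the 9 libraries in many genes. Of 12363 genes at 1 CPM or more, it was above the other 8 libraries in 3075 (24.9%) and below them in 3321 (26.9%). For each of those 8 libraries the shares were 4.64% to 14.7% above and 4.89% to 12.9% below. It was at least 4-fold above the mean of replicates 1 and 2 in 145 of these genes and at least 4-fold below it in 31. The values in this paragraph and the next come from 1 library, and they are descriptions with no test.

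The cell cycle, cholangiocyte, NRF2 and glutathione lists were high in replicate 3. Cell cycle genes were above all other 8 libraries in 33 of 35 (median 1.41 log2 units over the mean of replicates 1 and 2), NRF2 targets in 29 of 34 (1.16), interferon genes in 33 of 42 (1.26), cholangiocyte and progenitor markers in 13 of 15 (1.81), extracellular matrix and stellate cell markers in 20 of 29 (1.07), and macrophage markers in 16 of 20 (0.81). The median over all genes was 0.0026. Cdkn1a, a cyclin-dependent kinase inhibitor gene and p53 target, was at 6.95, 9.15 and 95.4 CPM in ARNT KO and 7.502, 11.5 and 13.4 CPM in ARNT Flox, and is named after its values were seen. The bile duct genes Epcam and Krt19 were at 2.08, 3.56 and 12.2 CPM and at 0.652, 1.11 and 3.47 CPM in ARNT KO. Summed over the list, cholangiocyte and progenitor markers stood at 462, 489 and 982 CPM in ARNT KO, 492 to 576 CPM in ARNT Flox and 423 to 511 CPM in AHR Flox. Among the genes furthest above replicates 1 and 2 were Cbr3 and the glutathione transferases Gsta1 (0.466, 0.699 and 61.2 CPM) and Gm3776 (0.248, 0.222 and 33.3 CPM), which are near copies, followed by Tff3, the trefoil peptide gene (0.217, 0.953 and 46.7 CPM) and Ly6d (1.46, 2.95 and 113 CPM). In these 5 genes replicate 3 was the highest of the 9 libraries. As a group, cell cycle genes had a median log2 change of 0.84 against ARNT Flox with replicate 3 (0 called by edgeR with 19 of 35 at an unadjusted p under 0.05, and 1 each by DESeq2 and weighted limma-voom) and of 0.30 without it (Tyms, thymidylate synthase, called higher at 0.53, adjusted p = 0.0422).

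Alb and several lists of liver metabolism were low in the same library. Alb (chromosome 5, 90460870 to 90476602), the albumin gene, stood at 51926, 53685 and 5740 CPM in ARNT KO, 69704, 87894 and 70516 CPM in ARNT Flox, and 78433, 89274 and 84389 CPM in AHR Flox. Replicates 1 and 2 were below all 6 floxed libraries and replicate 3 was far below those; Esr1 had the opposite order, at 216, 199 and 307 CPM. The 3 AHR KO libraries held 5491 to 7088.5 CPM of Alb and 468 to 473 CPM of Esr1. The Alb of replicate 3 lay in their range, and its Esr1 between theirs and that of ARNT KO replicates 1 and 2. Its Pebp1 also lay in the AHR KO range (239 to 339 CPM). For other genes replicate 3 was unlike AHR KO. It was far above AHR KO for Cbr3 (0.618 to 0.784 CPM in AHR KO) and Cdkn1a (9.64 to 10.5 CPM), and far below it for Arnt (55.2 to 68.0 CPM). The log2 change of Alb against ARNT Flox was −0.52 ± 0.19 SE without replicate 3 (adjusted p = 0.222) and −1.03 ± 0.60 with it (adjusted p = 0.897). Female-biased genes were below all other 8 libraries in 16 of 23 (median −1.56 log2 units under the mean of replicates 1 and 2), P450 genes in 22 of 38 (−0.83) and fatty acid oxidation genes in 28 of 34 (−0.49). The pericentral list was below in 15 of 25 (−0.40). The hepatocyte marker list was below in 7 of 20 and above in 2 (−0.28), and the periportal list was below in 5 of 20 and above in 6 (0.0036), against 26.9% of genes below. The sulfotransferase genes Sult2a5 (32.4, 25.7 and 1.81 CPM) and Sult2a7 (4.22, 3.05 and 0.144 CPM), which are near copies on chromosome 7, were among the lowest. Apoa1, the main apolipoprotein of high-density lipoprotein, was at 8641, 8453 and 7820 CPM in ARNT KO and so held its level in the library in which Alb was low.

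**Figure D4:**
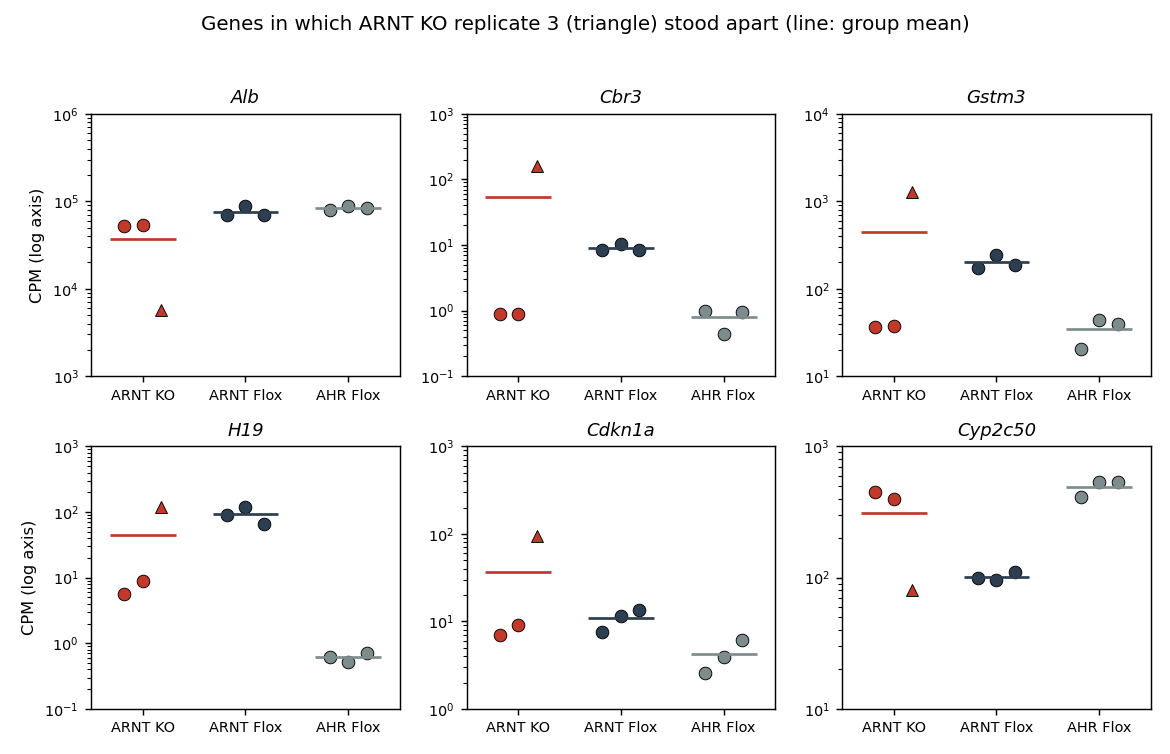
CPM on log axes for 6 genes by library, with ARNT KO replicate 3 as a triangle and a line at each group mean. Replicate 3 is low for Alb (5740 CPM) and Cyp2c50, and high for Cbr3 (162 CPM), Gstm3 (1278 CPM) and Cdkn1a (95.4 CPM). For H19 it lies with ARNT Flox.

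**Figure D5:**
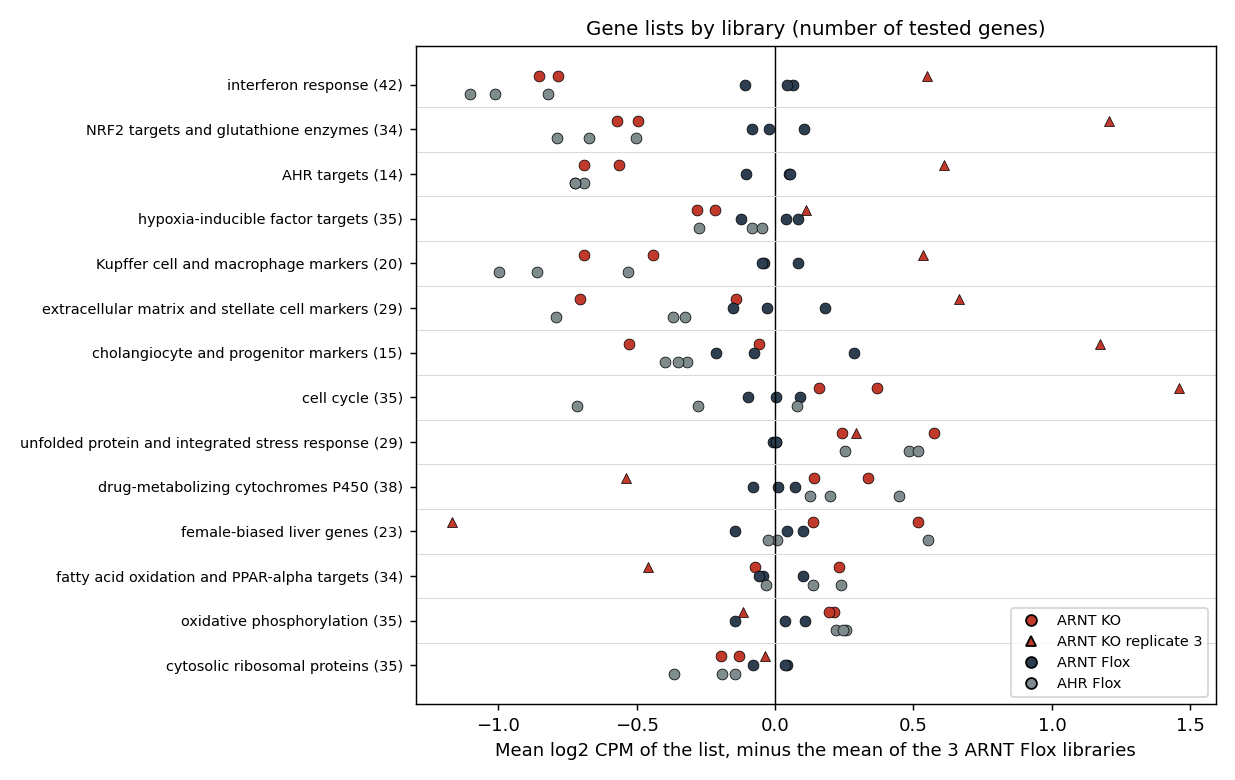
Mean log2 CPM of 14 gene lists in each library, relative to the mean of the 3 ARNT Flox libraries, with the number of tested genes in brackets and ARNT KO replicate 3 as a triangle. For interferon, NRF2, AHR target and macrophage genes, ARNT KO replicates 1 and 2 lie to the left with AHR Flox, and replicate 3 to the right of ARNT Flox.

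By chromosome, the share of tested genes called without replicate 3 ran from 0.194% (1 of 516) on chromosome 13 to 2.86% (15 of 525) on chromosome 19, against 1.37% over all genes. Chromosome 3, which holds Arnt, had 16 of 686 (2.33%), and chromosome 5, which holds Alb and Pebp1, had 21 of 894 (2.35%). These shares are from the fit without replicate 3 alone, since 8 genes were called with it.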

How the data were processed

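Poly-A RNA from whole liver was sequenced, 1 library per mouse and 3 mice per genotype. The authors deposited whole-number read counts per gene for 22537 genes. Per the submitters' processing notes, the genome build was mm10, and the tools were DESeq2 1.20.0 in R 3.5.1, bcl2fastq 2.20 and STAR in the releases 2.6.0c and 2.5.4b. The sources used here do not give their roles or the strand setting.

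Counts were scaled by TMM, filtered with filterByExpr (minimum count 10, minimum total 15; 13968 genes kept with 12 libraries, 14073 with 11) and tested with the edgeR 4.0.16 quasi-likelihood test (R 4.3.3), with the 4 genotypes in 1 fit. P-values were adjusted by Benjamini-Hochberg over all genes tested, and calls have an adjusted p under 0.05. The fit was run with all libraries and without ARNT KO replicate 3. Changes are log2 with their SE. The p-values rest on the spread between mice within groups, estimated over the 4 genotypes together. The common coefficient of variation between mice was 17.5% with ARNT KO replicate 3 and 13.1% without it. That mouse was left out because it was seen to differ, so p-values without it omit its part of the spread. A count of 3, taken as the floor, equals 0.0861 to 0.126 CPM. CPM is not divided by gene length, so levels are not compared between genes. Alternatives used limma 3.58.1 and DESeq2 1.42.0. On simulated counts for ARNT KO against ARNT Flox, 80% of 2-fold and 100% of 4-fold changes were recovered with 12 libraries, with 7 false calls among 13866 genes. With 11 libraries the shares were 65% and 94%, with 12 false calls among 13900 genes. Apart from the planted changes, all simulated libraries shared 1 mean and 1 spread per gene, so none stood apart as ARNT KO replicate 3 does. Both runs used the spread estimated with that library included. The shares therefore do not rank the real fits with and without it.

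Of the tested genes, 99.4% matched RefSeq GRCm38.p6, from which positions and promoters were taken. The groups, gene lists and tests were chosen with earlier results of these data known. Genes named are the bHLH-PAS genes, those called with 12 libraries at 1 CPM or more, the 15 largest rises and 15 largest falls without replicate 3, the 3 list members with the smallest p, and the 10 highest and 10 lowest genes of replicate 3; others were chosen after their values were seen, as was the position scale between group means. Some genes may not be reported here.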

Additional observations from a re-analysis of the deposited data

How the results depend on the processing

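With all libraries, 8 genes were called against ARNT Flox. The count was 56 with DESeq2, 422 with limma-voom and library quality weights, and 1 with only the ARNT groups in the fit, and it ran from 1 to 193 over fits that left out 1 library each (1 when ARNT Flox replicate 2 was left out, 13 for AHR KO replicate 1, and 193 for ARNT KO replicate 3). DESeq2 size factors and no filter on low counts each gave 8. Without ARNT KO replicate 3, 193 genes were called. The count was 191 with DESeq2 size factors, 211 with no filter, 581 with DESeq2, 477 with weighted limma-voom, and 379 with only the ARNT groups, and it ran from 24 to 255 over fits that left out a further library (24 when it was ARNT KO replicate 1, 102 for ARNT KO replicate 2, and 75, 85 and 97 for ARNT Flox replicates 1, 2 and 3). Fits with 1 ARNT KO library assume that it varies like the other groups. The causes of these differences were not tested. Against AHR Flox, 24 genes were called with replicate 3 and 22 without it.

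Residual correlations between same-numbered ARNT KO and ARNT Flox libraries were −0.037, −0.0075 and −0.012. The residuals were taken from group means that include ARNT KO replicate 3, which stands apart, so these values cannot exclude a pairing by replicate number. With the replicate block the counts were 3 instead of 8, and 141 instead of 193.

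Esr1 was called under all 18 alternatives with 12 libraries and all 17 without replicate 3. Arnt and Pebp1 lost their calls with only the ARNT groups and without ARNT Flox replicate 2 (adjusted p up to 0.0747 and 0.0557), and kept them under all 17 without replicate 3. Gpr64, Atp2b2, Rad51l1, Akap6 and Cyp2g1 lost theirs under 8, 10, 11, 11 and 12 of the 18. The change of Irf7 with 12 libraries ran from −1.26 to 0.18 with 1 library left out, above 0 without ARNT KO replicate 1 (0.17) or 2 (0.18). That of Cbr3 was −3.01 with weighted limma-voom and ran from −3.33, without ARNT KO replicate 3, to 3.16. Without replicate 3, Cyp1a2, Irf7, Cbr3, H19 and Tuba8 were called under all 17 alternatives, while Epas1, Hk2, Nqo1 and Ugt1a9 lost their calls under 11, 9, 5 and 2.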
